A study of Mus musculus with 10 samples.

Results

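The genes of the integrated stress response controlled by ATF4, together with the amino acid enzymes and transporters that ATF4 is known to induce, were followed as a set of 38 named genes in ARG1+ and ARG1- myeloid cells of the inflamed spinal cord. The members were found by gene symbol and matched 39 of the 55487 rows of the count table, since Ddit3 occurred in 2 rows. Of these rows, 30 passed the filter on low counts and were tested among 13740 genes, and 9 did not pass it. The tested members comprised 4 stress sensors and regulators of eIF2, 7 stress transcription factors, 4 stress targets, 5 serine and one-carbon enzymes, 5 other amino acid enzymes and tRNA exporters and 5 amino acid transporters.

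Bulk RNA-seq had been performed on cells of 5 male C57BL/6 Arg1tm1Lky mice, aged 8 to 12 weeks, in which a YFP reporter follows Arg1. Every animal had active experimental autoimmune encephalomyelitis (EAE), an autoimmune demyelinating disease induced with MOG35-55 peptide in complete Freund's adjuvant plus pertussis toxin, and was sampled at peak disease. Viable Ly6G-CD3-CD45+CX3CR1+ cells of the spinal cord were sorted into 200000 YFP+ cells (ARG1+) and 100000 YFP- cells (ARG1-) per animal. Both groups therefore shared the disease, the reporter allele, the age and the animals (m2, m6, m234, m235 and m236), and differed in reporter signal and in the number of cells sorted. There was no healthy or untreated group. The gate rested on the reporter and on CX3CR1 and did not separate microglia, border-associated macrophages and monocyte-derived cells.

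Arg1 itself averaged 814 ± 174 CPM in ARG1+ against 18.4 ± 4.96 CPM in ARG1- libraries (log2 fold change 5.45 ± 0.21, edgeR FDR = 1.07e-07). Means are given ± SD over n = 5 libraries per group, ARG1+ first, and log2 fold changes of ARG1+ over ARG1- cells ± SE. Library totals ran from 28212174 to 35455643 counts in 9 of the 10 libraries, and the ARG1- library of m234 held 8396863. Sums over marker lists depend on the genes listed and do not measure the share of a cell type. The 8 monocyte and macrophage markers summed to 12810 to 17917 CPM (counts scaled to a common library size) in ARG1+ and 11497 to 13968 CPM in ARG1- libraries. Within this list Lyz2, which carried most of the sum, Mertk and Itgam were higher in ARG1+ cells, whereas Ccr2, the chemokine receptor of recruited monocytes, averaged 178 ± 51.6 and 388 ± 74.05 CPM (log2 fold change -1.12 ± 0.19 (SE), edgeR FDR = 0.0034) without overlap. The other 4 markers of the list were not called, Adgre1 with a positive log2 fold change and Ly6c2, Csf1r and Fcgr1 with negative ones. With the animal as a block, 4 of the 8 were higher and 4 lower, these 3 among the lower. Transcripts of other cells were not spread evenly. The 9 dendritic cell markers summed to 12.3 to 27.7 CPM in ARG1+ and 27.6 to 57.9 CPM in ARG1- libraries, with 5 of 7 tested markers lower in ARG1+ cells (Flt3, Dpp4, Zbtb46, Ccr7 and Kmo) and Clec9a not. The 9 B and plasma cell markers summed to 5.88 to 17.7 and 32.5 to 68.97 CPM, with the immunoglobulin-related Igkc, Ighm and Jchain lower, Cd79b not called (2.14 and 2.25 CPM) and Ms4a1 near 0 in both groups. The 9 microglial markers summed to 753 to 1128 and 811 to 2667 CPM, the highest value being the ARG1- library of m234. None of the 9 passed the test, and 7 were lower with the animal as a block. The 6 border-associated macrophage markers summed to 701 to 1364 CPM in ARG1+ and 322 to 804 CPM in ARG1- libraries. Among them, Mrc1 and Pf4 were higher in ARG1+ cells, whereas Cd163 and Lyve1 stayed near 0 and Cbr2 did not pass the filter. F13a1, which made up most of the sum, was not called at 1021 and 595 CPM (edgeR FDR = 0.0511) but was higher with the block (FDR = 1.62e-05). T and NK cell markers summed to at most 2.28 CPM and neuronal markers to at most 0.939 CPM in any library. Of the remaining lists, neutrophil markers ran from 11.9 to 32.1 CPM (S100a9 lower, at 0.242 and 2.44 CPM, S100a8, which made up most of the sum, not called at 23.99 and 20.05 CPM but higher with the block, Ly6g near 0), oligodendrocyte markers from 138 to 197 CPM (none of 5 called), astrocyte markers from 53.3 to 96.6 CPM (Aldoc and Gja1 higher, Gfap and Slc1a2 not called, at log2 fold changes of -0.38 and -0.29) and endothelial markers from 68.3 to 145 CPM. Of the endothelial markers, Flt1 was lower, at 87.3 and 121 CPM, and made up most of the sum. Pecam1 (7.18 and 7.42 CPM) and Cdh5 (0.980 and 0.966 CPM) were not called, and Cldn5 did not pass the filter. The part of these cells in the differences described here was not tested, and in bulk RNA fewer cells of a type cannot be told apart from less RNA of a gene per cell.

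The integrated stress response joins several kinases, among them GCN2 (Eif2ak4), which senses uncharged tRNAs when amino acids are scarce, and PERK (Eif2ak3), which senses misfolded protein in the endoplasmic reticulum. These kinases phosphorylate the initiation factor eIF2α (Eif2s1), which lowers translation in general while raising translation of Atf4 mRNA. ATF4 protein then binds composite C/EBP-ATF elements and induces asparagine synthetase, serine synthesis enzymes, amino acid transporters and feedback factors. Because control of ATF4 is largely translational, its mRNA level need not follow its activity, and RNA-seq measured mRNA only.

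No tested member passed the test as higher in ARG1+ cells, 6 of 30 passed it as lower and 24 did not pass it (edgeR's quasi-likelihood test with Benjamini-Hochberg adjustment, FDR below 0.05 over all genes tested). The lower members were Phgdh and Mthfd2 of serine and one-carbon metabolism, Asns and Aldh18a1 of asparagine and proline synthesis, the transporter subunit Slc7a5 and the transcription regulator Nupr1. Across all 13740 genes, 6.82% were higher and 6.15% were lower, against 0% and 20% of the members. At an unadjusted p below 0.05, 2 members were higher and 11 lower, beside 2062 and 2055 of all 13740 genes. DESeq2 called 1 member higher (Ddit4) and limma-trend none. The median log2 fold change of the members was -0.12 beside -0.0022 over all genes, and 9 of the 30 had a positive value. With the limit of an absolute log2 fold change above 1 added, only Phgdh remained called, where 1.45% of all genes did. The groups did not overlap for 6 members, the same 6 genes that were called, and for 11.3% of all genes. Each of the 6 stayed called without either or both libraries of m234, the animal of the shallow library.

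Paired libraries came from the same animal, and with the animal as a block in edgeR 2 members were higher and 14 lower, beside 16.8% and 18.3% of all genes. The 2 higher members were Eif2ak4 and Ddit4. The added lower members were Ddit3, Atf3, Cebpg, Sesn2, Psat1, Got1, Slc3a2 and Slc6a9, and the 6 lower members of the fit without a block were called in it as well. Of the 30 tested members, 14 were lower and 3 higher in ARG1+ cells of all 5 animals. The share of all tested genes with such agreement was not counted, so these counts cannot be set against it. The plot of fold changes by role gives each member's interval. In what follows, a gene termed called or not called refers to the fit without the block, unless the block is named.

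**Figure D1:**
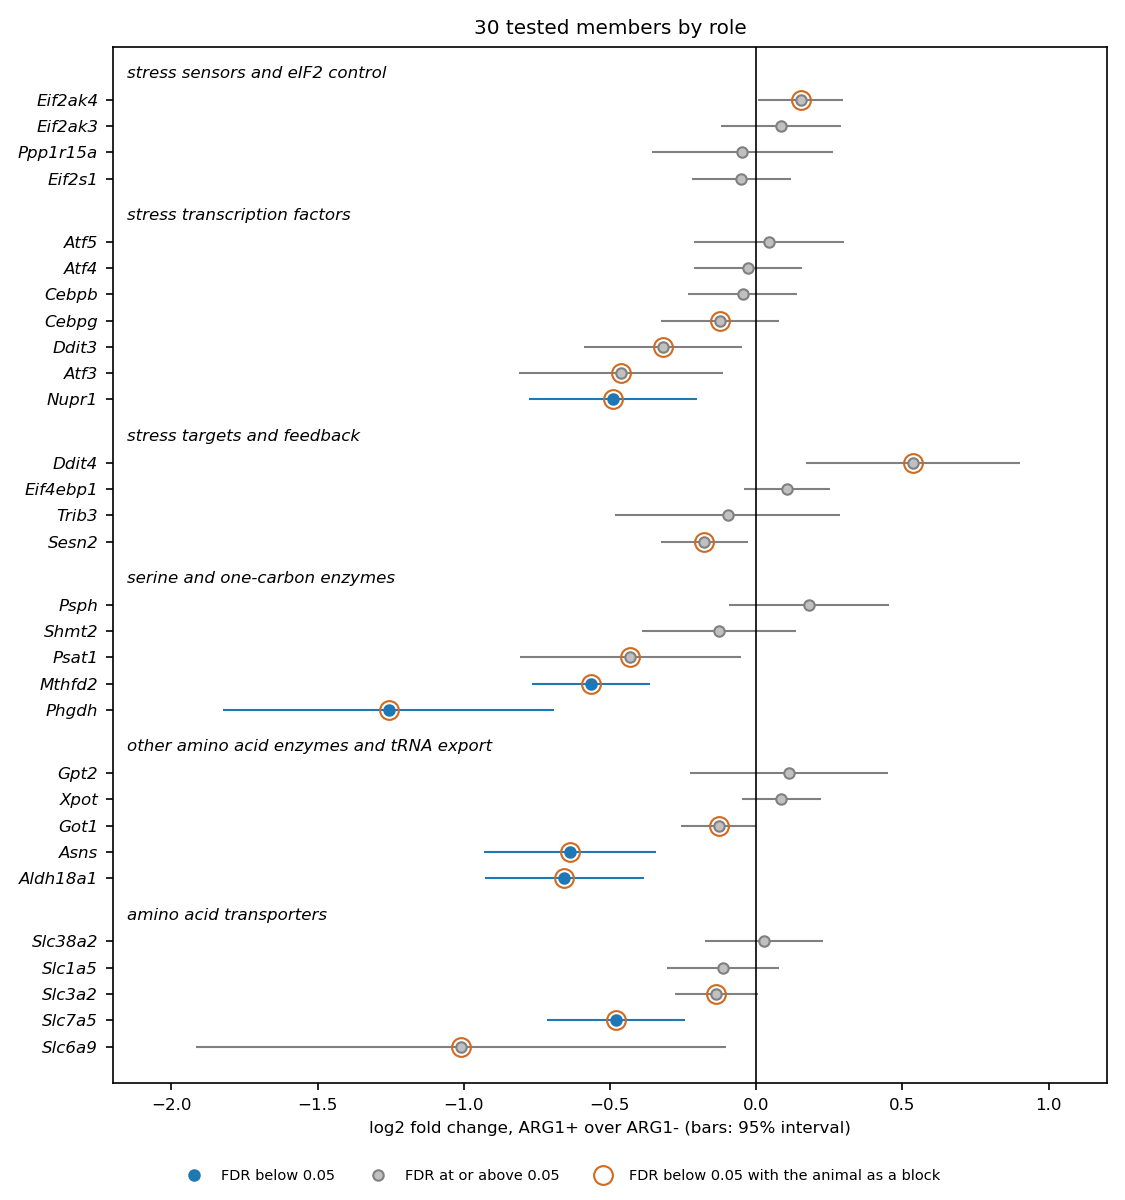
Each point is the log2 fold change of 1 of the 30 tested members in ARG1+ over ARG1- cells (horizontal axis, no unit) with its 95% interval from edgeR, grouped by role. Blue points passed an FDR of 0.05 without a block (6 members, all below 0) and orange rings mark the 16 members that passed it with the animal as a block, of which Eif2ak4 and Ddit4 lie above 0.

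Serine and one-carbon enzymes gave the lowest median of the 6 groups, -0.43 over 5 tested genes, with 2 lower and 3 not called. Phgdh (phosphoglycerate dehydrogenase, chr3:98313170-98339990, minus strand, GRCm38) catalyses the first step of serine synthesis from glycolysis. In the order m2, m6, m234, m235 and m236, Phgdh stood at 4.76, 3.98, 2.65, 2.91 and 5.39 CPM in the ARG1+ libraries and at 12.6, 6.64, 12.1, 5.69 and 10.5 CPM in the ARG1- libraries. All ARG1+ libraries lay below all ARG1- libraries, and among the ARG1- libraries m2, m234 and m236 were high and m6 and m235 low. The group means were 3.94 ± 1.17 CPM in ARG1+ against 9.52 ± 3.17 CPM in ARG1- libraries (log2 fold change -1.26 ± 0.26, edgeR FDR = 0.00956), and the level was 2.39-fold lower in ARG1+ cells. The processed pseudogene Gm7901 shared 47.8% of the 50-base stretches of Phgdh transcripts, so reads of this gene could be split between them. Gm7901 was itself lower, 1.70 ± 0.544 CPM in ARG1+ against 3.90 ± 1.45 CPM in ARG1- libraries (log2 fold change -1.15 ± 0.28, edgeR FDR = 0.0212), and with its counts added to Phgdh the log2 fold change was -1.23 and the FDR was 0.0101.

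Mthfd2 (chr6:83305691-83325908, minus strand), the mitochondrial methylenetetrahydrofolate dehydrogenase, passes one-carbon units on from serine. The ARG1+ libraries gave 24.9, 28.3, 31.3, 25.3 and 22.4 CPM of Mthfd2 and the ARG1- libraries 37.6, 35.95, 44.7, 40.6 and 37.4 CPM. The highest ARG1+ value, in m234, stayed below the lowest ARG1- value, in m6. Mthfd2 averaged 26.4 ± 3.43 against 39.3 ± 3.49 CPM, with a log2 fold change of -0.56 ± 0.09 (edgeR FDR = 0.00285), and within animals the log2 difference ran from -0.74 to -0.34.

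Psat1, the aminotransferase that follows PHGDH, was not called without the block. Psat1 stood at 14.2, 11.5, 9.50, 11.6 and 15.5 CPM in the ARG1+ libraries of these animals, and at 20.6, 13.6, 19.5, 11.8 and 18.99 CPM in their ARG1- libraries. Its ARG1- libraries split as those of Phgdh did, with m2, m234 and m236 at 18.99 to 20.6 CPM and m6 and m235 at 11.8 to 13.6 CPM, and the groups overlapped. Mean levels of Psat1 were 12.5 ± 2.41 and 16.9 ± 3.92 CPM, and the log2 fold change was -0.43 ± 0.17 (edgeR FDR = 0.119). With the block the FDR was 0.0237, and the call was also made without the ARG1- library of m235 (FDR = 0.0493).

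Psph, the phosphatase that completes serine synthesis, was not lower in any animal. For Psph, the means of 4.71 ± 0.504 and 4.09 ± 0.584 CPM gave a log2 fold change of 0.18 ± 0.12 (edgeR FDR = 0.357). Its values were higher in ARG1+ cells of 5 of 5 animals and did not pass the test with the block either (FDR = 0.161). Shmt2, which splits serine to glycine and a one-carbon unit in mitochondria, had 20.7 ± 2.38 CPM in ARG1+ against 22.5 ± 4.03 CPM in ARG1- libraries (log2 fold change -0.13 ± 0.12, edgeR FDR = 0.516). Aldh1l2, a mitochondrial folate enzyme, did not pass the filter and had 77 counts over the ARG1+ and 107 over the ARG1- libraries, of which 52 came from a single ARG1- library. About 14.1% of its exon bases overlapped a gene on the other strand. The libraries were strand-specific, but the sources used here do not say whether counting used the strand.

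**Figure D2:**
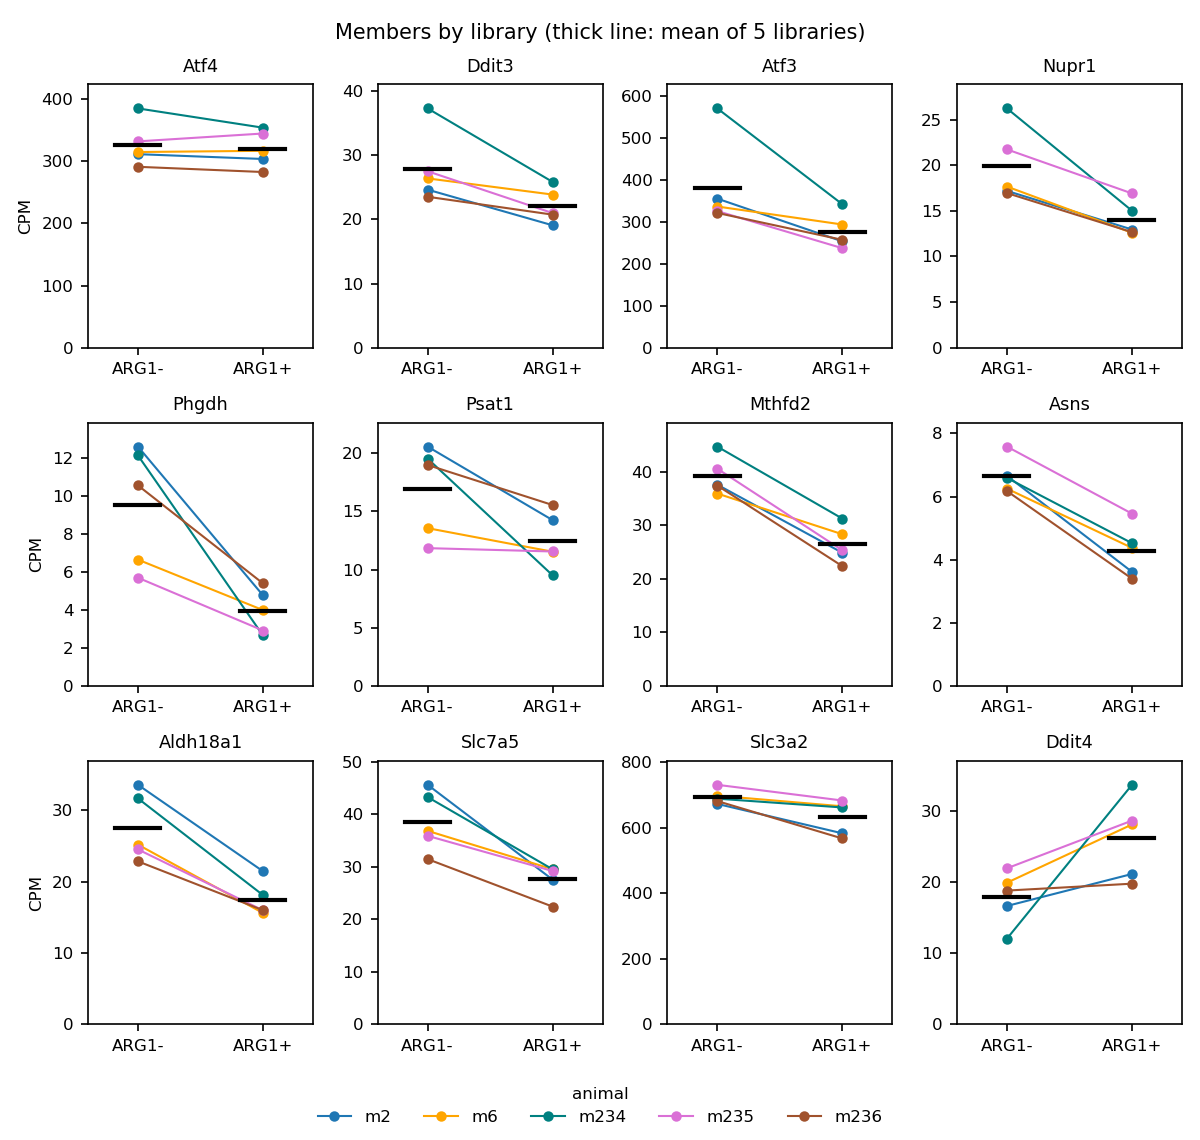
TMM-normalised CPM (vertical axes, each from 0) of 12 members in the ARG1- and ARG1+ library of each animal, joined by a line per animal, with the mean of 5 libraries as a thick line. Phgdh, Mthfd2, Asns, Aldh18a1, Slc7a5 and Nupr1 do not overlap between groups, Atf4 lies level, and Ddit4 is the panel in which every line rises towards ARG1+.

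Among the other amino acid enzymes and tRNA exporters, 2 of 5 tested members were lower and 3 were not called. Asns (chr6:7675169-7693254, minus strand) encodes asparagine synthetase, the classical ATF4 target of amino acid deprivation. By animal in the same order, Asns measured 3.61, 4.37, 4.52, 5.46 and 3.40 CPM in ARG1+ and 6.66, 6.25, 6.59, 7.58 and 6.17 CPM in ARG1- libraries. The groups did not overlap, and animal m235 had the highest value in each group. The log2 fold change of Asns was -0.64 ± 0.14 (edgeR FDR = 0.0108), from means of 4.27 ± 0.818 and 6.65 ± 0.561 CPM. Without both libraries of m2 or of m6 the call was lost, with an FDR of up to 0.0659.

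Aldh18a1 (chr19:40550257-40588463, minus strand) encodes the enzyme that begins proline and ornithine synthesis from glutamate. The ARG1+ libraries gave 21.4, 15.6, 18.1, 15.9 and 15.97 CPM of Aldh18a1 and the ARG1- libraries 33.6, 25.2, 31.7, 24.5 and 22.8 CPM. Every ARG1+ library lay below every ARG1- library, and the within-animal log2 difference ran from -0.81 to -0.51. Aldh18a1 averaged 17.4 ± 2.46 against 27.5 ± 4.75 CPM, with a log2 fold change of -0.66 ± 0.13 (edgeR FDR = 0.00640).

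Got1, the cytosolic aspartate aminotransferase, was the most abundant enzyme among the members per kilobase of exon. Got1 stood at 267, 271, 292, 253 and 254 CPM in the ARG1+ libraries of these animals, and at 299, 295, 315, 277 and 278 CPM in their ARG1- libraries. The difference was small and of the same sign in every animal, from -0.16 to -0.11 on the log2 scale, while the groups overlapped. Mean levels of Got1 were 268 ± 16.01 and 293 ± 16.1 CPM, and the log2 fold change was -0.13 ± 0.06 (edgeR FDR = 0.169), and the FDR with the block was 0.0114. Gpt2, the mitochondrial alanine aminotransferase, and Xpot, which exports tRNA from the nucleus, were not called in either fit. For Gpt2, the means of 6.08 ± 1.07 and 5.56 ± 1.07 CPM gave a log2 fold change of 0.11 ± 0.16 (edgeR FDR = 0.668). The log2 fold change of Xpot was 0.09 ± 0.06 (edgeR FDR = 0.379), from means of 47.1 ± 2.56 and 44.4 ± 3.21 CPM. A processed pseudogene, Gm7389, shared 13.97% of the 50-base stretches of Xpot. Pycr1 (proline synthesis), Cth and Cbs (transsulfuration) did not pass the filter, with 29, 27 and 14 counts over all 10 libraries.

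Of the 5 tested amino acid transporters, 1 was lower and 4 were not called. Slc7a5 (LAT1, chr8:121881150-121907694, minus strand) is the light chain that, paired with the heavy chain Slc3a2 (CD98), exchanges large neutral amino acids. By animal in the same order, Slc7a5 measured 27.6, 29.5, 29.5, 29.2 and 22.4 CPM in ARG1+ and 45.7, 36.9, 43.3, 35.9 and 31.5 CPM in ARG1- libraries. The groups did not overlap, and m236 was lowest in both. Slc7a5 averaged 27.6 ± 3.04 against 38.6 ± 5.77 CPM, with a log2 fold change of -0.48 ± 0.11 (edgeR FDR = 0.0151), and the call was lost without both libraries of m2 or of m6, with an FDR of up to 0.0806. The partner Slc3a2 stood far higher per kilobase, at 179 CPM per kb in ARG1+ and 197 CPM per kb in ARG1- cells, against 7.46 and 10.4 CPM per kb for Slc7a5. The ARG1+ libraries gave 583, 666, 662, 684 and 567 CPM of Slc3a2 and the ARG1- libraries 673, 698, 689, 732 and 682 CPM. Its values were lower in ARG1+ cells of 5 of 5 animals with overlapping groups. Mean levels of Slc3a2 were 633 ± 53.1 and 695 ± 22.5 CPM, and the log2 fold change was -0.14 ± 0.07 (edgeR FDR = 0.187), and the FDR with the block was 0.0279.

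The glutamine carriers Slc1a5 and Slc38a2 were not called in either fit. For Slc1a5, the means of 84.6 ± 9.43 and 91.7 ± 9.09 CPM gave a log2 fold change of -0.11 ± 0.09 (edgeR FDR = 0.417). The log2 fold change of Slc38a2 was 0.03 ± 0.09 (edgeR FDR = 0.881), from means of 519.5 ± 60.7 and 510.4 ± 52.5 CPM, and its interval of the log2 difference ran from -0.18 to 0.23. The glycine transporter Slc6a9 was close to the filter. Slc6a9 stood at 0.764, 0.972, 0.808, 0.394 and 0.817 CPM in the ARG1+ libraries of these animals, and at 1.23, 1.28, 3.65, 0.537 and 1.70 CPM in their ARG1- libraries. A wide span separated the ARG1- libraries, with m234 highest and m235 lowest, and the groups overlapped. Slc6a9 averaged 0.751 ± 0.214 against 1.68 ± 1.18 CPM, with a log2 fold change of -1.01 ± 0.42 (edgeR FDR = 0.126). The FDR with the block was 0.0208, and 30.2% of its exon bases overlapped genes on the other strand. Slc1a4, which carries alanine, serine and cysteine, did not pass the filter (52 counts over the ARG1+ and 115 over the ARG1- libraries). Without any filter it was called lower, at a log2 fold change of -1.43 ± 0.39 (SE) and an edgeR FDR of 0.0381.

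The stress transcription factors included 1 lower member and 6 that were not called without the block, and with it 4 of the 7 were lower. Atf4 mRNA (chr15:80255184-80257541, plus strand) was abundant in both groups. By animal in the same order, Atf4 measured 304, 317, 354, 345 and 283 CPM in ARG1+ and 311, 315, 385, 332 and 291 CPM in ARG1- libraries. The groups overlapped throughout, and the sign of the difference varied among animals. Mean levels of Atf4 were 320.4 ± 29.3 and 327 ± 35.6 CPM, and the log2 fold change was -0.03 ± 0.08 (edgeR FDR = 0.858), and the interval of the log2 difference ran from -0.21 to 0.16. Atf5 and Cebpb, related bZIP factors, were not called either. For Atf5, the means of 25.1 ± 4.41 and 24.3 ± 2.81 CPM gave a log2 fold change of 0.04 ± 0.12 (edgeR FDR = 0.835). The log2 fold change of Cebpb was -0.05 ± 0.09 (edgeR FDR = 0.760), from means of 604 ± 58.4 and 623 ± 62.02 CPM. Of Cebpb's exon bases, 20.7% overlapped a gene on the other strand.

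Nupr1 (chr7:126623249-126630861, minus strand), a small stress-induced transcription regulator, was the lower member of this group. The ARG1+ libraries gave 12.96, 12.6, 15.02, 16.9 and 12.7 CPM of Nupr1 and the ARG1- libraries 17.2, 17.7, 26.2, 21.7 and 16.96 CPM. The highest ARG1+ library, m235, lay just below the lowest ARG1- library, m236. Nupr1 averaged 14.03 ± 1.89 against 19.96 ± 4.02 CPM, with a log2 fold change of -0.49 ± 0.13 (edgeR FDR = 0.0314). This call was lost in 7 of 15 omissions of a library or animal, among them m2, m6, m235 and m236, with an FDR of up to 0.0993.

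Ddit3 (CHOP), the factor that carries prolonged stress towards cell death, had lower values in ARG1+ cells of 5 of 5 animals without passing the test. Ddit3 stood at 19.1, 23.9, 25.8, 20.98 and 20.7 CPM in the ARG1+ libraries of these animals, and at 24.6, 26.4, 37.3, 27.5 and 23.5 CPM in their ARG1- libraries. The ARG1- library of m234 was the highest and the groups overlapped. Mean levels of Ddit3 were 22.1 ± 2.71 and 27.9 ± 5.49 CPM, and the log2 fold change was -0.32 ± 0.12 (edgeR FDR = 0.107), and the FDR with the block was 0.0036. A second Ddit3 row, lying within the first on chromosome 10, had 0 counts in all 10 libraries. Reads that overlap more than one gene are not counted in Union mode, so this 0 sets no limit on its level. Cebpg, the dimer partner of ATF4, was not called (log2 fold change -0.12 ± 0.09, edgeR FDR = 0.402), and the FDR with the block was 0.0366.

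Atf3, which is induced by ATF4 and also as an immediate early gene, showed the same direction in every animal. By animal in the same order, Atf3 measured 253, 294, 342, 237 and 257 CPM in ARG1+ and 355, 337, 570.5, 326 and 321 CPM in ARG1- libraries. The ARG1- library of m234 stood apart from the other ARG1- libraries at 321 to 355 CPM, and the groups overlapped. For Atf3, the means of 277 ± 41.9 and 382 ± 106 CPM gave a log2 fold change of -0.46 ± 0.16 (edgeR FDR = 0.0777). The FDR with the block was 7.4e-04, and DESeq2 also called it. Without both libraries of m234 the log2 fold change was -0.36 and the FDR was 0.0115, whereas without its ARG1- library alone they were -0.27 and 0.0923. The 10 immediate early and dissociation genes summed to 5931 to 7859 CPM in ARG1+ and 5105 to 6921 CPM in ARG1- libraries, with Fos and Fosb higher in ARG1+ cells and none called lower. Of the 10, 5 had a negative log2 fold change, and with the block 5 were higher and 2 lower (Ier2 and Hspa1b). Their part in the Atf3 values was not tested.

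None of the 4 stress sensors and eIF2 regulators was called without the block, and with it 1 was higher. Eif2ak4 (GCN2) was higher in ARG1+ cells of 5 of 5 animals. The ARG1+ libraries gave 65.6, 69.6, 60.3, 61.5 and 56.6 CPM of Eif2ak4 and the ARG1- libraries 53.4, 62.3, 57.9, 55.8 and 52.8 CPM. The groups overlapped. The log2 fold change of Eif2ak4 was 0.15 ± 0.07 (edgeR FDR = 0.149), from means of 62.7 ± 5.01 and 56.5 ± 3.85 CPM, and the FDR with the block was 0.0169. Eif2ak3 averaged 30.9 ± 2.35 against 29.1 ± 3.98 CPM, with a log2 fold change of 0.09 ± 0.09 (edgeR FDR = 0.575). The mRNAs of PERK and eIF2α were not called in either fit. Mean levels of Eif2s1 were 56.7 ± 5.47 and 58.8 ± 4.82 CPM, and the log2 fold change was -0.05 ± 0.08 (edgeR FDR = 0.699). Ppp1r15a (GADD34), which directs dephosphorylation of eIF2α, had 327 ± 47.5 CPM in ARG1+ against 339 ± 80.1 CPM in ARG1- libraries (log2 fold change -0.05 ± 0.14, edgeR FDR = 0.854).

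The stress targets and feedback genes held no called member among 4 tested without the block, and with it 1 was higher and 1 lower. Ddit4 (REDD1), an inhibitor of mTORC1, had the highest fold change of all tested members. Ddit4 stood at 21.1, 28.1, 33.6, 28.6 and 19.7 CPM in the ARG1+ libraries of these animals, and at 16.6, 19.9, 12.01, 21.9 and 18.8 CPM in their ARG1- libraries. The within-animal log2 difference ran from 0.07 in m236 to 1.48 in m234, and the groups overlapped. For Ddit4, the means of 26.2 ± 5.75 and 17.8 ± 3.77 CPM gave a log2 fold change of 0.54 ± 0.17 (edgeR FDR = 0.0551). The FDR with the block was 0.0225, and the gene was also called by DESeq2, without a filter, and without the ARG1+ library of m236 or the ARG1- library of m235. With a library or an animal left out the FDR ran from 0.0375 to 0.149, and without both libraries of m234 the log2 fold change was 0.34 and the FDR was 0.121. Sesn2, which restrains mTORC1 when leucine is low, had lower values in ARG1+ cells of 5 of 5 animals. The log2 fold change of Sesn2 was -0.18 ± 0.07 (edgeR FDR = 0.105), from means of 44.04 ± 4.08 and 49.8 ± 2.44 CPM, and the FDR with the block was 0.0083. Trib3, a pseudokinase that feeds back on ATF4, was not called (log2 fold change -0.10 ± 0.18, edgeR FDR = 0.751). Eif4ebp1, which holds back cap-dependent translation, was not called (log2 fold change 0.10 ± 0.07, edgeR FDR = 0.325). Chac1, which degrades glutathione, and Stc2, a secreted glycoprotein, had 25 and 2 counts over all libraries. Vldlr, a lipoprotein receptor, had 34 counts over the ARG1+ and 11 over the ARG1- libraries, 5 to 8 per ARG1+ and 0 to 4 per ARG1- library, without overlap. Without any filter the log2 fold change of Vldlr was 1.42 ± 0.55 (SE) and the edgeR FDR was 0.173.

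Levels can be compared between members only per length. Per kilobase of exon, Cebpb led both groups (402 and 414 CPM per kb in ARG1+ and ARG1- cells), followed by Slc3a2, Atf4 or Atf3, Ppp1r15a and Got1, all above 100 CPM per kb. The called members were of low to middle level, from 1.56 CPM per kb for Asns to 7.58 CPM per kb for Mthfd2 in ARG1+ cells. In counts, the lowest of the called genes was Asns, with 56 counts in its smallest library, followed by Phgdh with 82.

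Promoters of 33 of the 38 members were found in RefSeq (GRCm38.p6, 250 bases before to 50 after each start), and Slc7a5, Cth, Slc1a5, Eif4ebp1 and Aldh1l2 had no entry. The core of the composite element that C/EBP-ATF dimers bind, TGATGNAA on either strand, occurred in promoters of 9 of the 33 members (27.3%) and of 4.51% of 27025 genes. It was held by Asns, Nupr1, Atf3, Trib3, Chac1, Slc1a4, Pycr1, Vldlr and Got1. The members were chosen as genes of the ATF4 response, so their higher share can follow from that choice and is no separate finding. The cyclic AMP response element TGACGTCA, which reads the same on both strands and shares no 8-base match with the composite element, occurred in 1 member, Ppp1r15a, and in 2.03% of genes. Stretches of 150 bases before the RefSeq start are printed for the 5 called members with an entry and for Atf3, to show which hold the element (in capitals) and which do not. Each is written 5′ to 3′ on the strand of its gene.
Asns, chr6:7693210-7693359, minus strand: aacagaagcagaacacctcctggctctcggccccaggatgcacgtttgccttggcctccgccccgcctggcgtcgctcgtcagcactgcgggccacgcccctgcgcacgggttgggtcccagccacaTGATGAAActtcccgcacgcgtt
Nupr1, chr7:126625471-126625620, minus strand: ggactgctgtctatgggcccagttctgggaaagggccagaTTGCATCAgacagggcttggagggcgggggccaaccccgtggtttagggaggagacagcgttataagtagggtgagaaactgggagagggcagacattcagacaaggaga
Atf3, chr1:191183334-191183483, minus strand: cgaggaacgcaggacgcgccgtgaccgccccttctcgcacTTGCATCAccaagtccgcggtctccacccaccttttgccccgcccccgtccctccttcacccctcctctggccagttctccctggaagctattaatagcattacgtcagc
Phgdh, chr3:98339970-98340119, minus strand: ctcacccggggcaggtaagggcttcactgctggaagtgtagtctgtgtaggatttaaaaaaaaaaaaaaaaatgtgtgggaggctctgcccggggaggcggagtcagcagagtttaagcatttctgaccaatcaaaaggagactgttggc
Mthfd2, chr6:83317605-83317754, minus strand: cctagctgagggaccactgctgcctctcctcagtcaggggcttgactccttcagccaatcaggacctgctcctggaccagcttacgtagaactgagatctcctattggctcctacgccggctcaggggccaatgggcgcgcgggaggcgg
Aldh18a1, chr19:40588464-40588613, minus strand: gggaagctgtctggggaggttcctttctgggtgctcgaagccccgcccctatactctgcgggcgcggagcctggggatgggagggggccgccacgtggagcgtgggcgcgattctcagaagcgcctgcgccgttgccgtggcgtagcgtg
The element began 23 bases before the start in Asns and 110 bases before it in both Nupr1 and Atf3, where it lay on the opposite strand. In Phgdh, Mthfd2 and Aldh18a1 these letters were not found within the 300 bases searched. Of the 9 members that held the element, Asns and Nupr1 were lower, Atf3, Got1 and Trib3 were not called, and Chac1, Slc1a4, Pycr1 and Vldlr were below the filter. Atf3 and Got1 were lower with the animal as a block, and Slc1a4 was lower without any filter.

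Related genes outside the member set were counted in 7 lists with 109 tested genes, of which 8 were higher and 9 lower, beside 6.82% and 6.15% of all genes. With the animal as a block, 18 were higher and 23 lower, beside 16.8% and 18.3%. The 12 genes of eIF2, eIF2B and their control held no called gene, and Ppp1r15b, the one with the highest CPM (not scaled to length, as for the lists that follow), was not called (log2 fold change -0.20 ± 0.08, edgeR FDR = 0.0942). With the block, 4 of these genes were lower, Ppp1r15b among them (FDR = 0.0010). Of 20 cytosolic aminoacyl-tRNA synthetases, which load tRNAs and many of which ATF4 can induce, 1 was higher and 3 were lower. Eprs, which had the highest CPM and was the higher one, averaged 282 ± 41.3 CPM in ARG1+ against 214 ± 20.6 CPM in ARG1- libraries (log2 fold change 0.40 ± 0.10, edgeR FDR = 0.0250). Cars, the synthetase for cysteine, averaged 24.1 ± 1.38 CPM in ARG1+ against 30 ± 0.821 CPM in ARG1- libraries (log2 fold change -0.32 ± 0.06, edgeR FDR = 0.00423), and Vars and Aars were lower as well. The 16 tested folate, glycine and methionine enzymes held no called gene, and Mat2a, which makes S-adenosylmethionine, was not called (log2 fold change -0.20 ± 0.09, edgeR FDR = 0.137). With the block, 2 of them were higher and 2 lower, Mat2a among the lower (FDR = 0.0122).

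Other amino acid transporters moved in both directions, with 5 of 18 higher and 2 lower. The higher ones included the leucine carrier Slc43a2, 315 ± 45.7 CPM in ARG1+ against 228 ± 37.6 CPM in ARG1- libraries (log2 fold change 0.46 ± 0.12, edgeR FDR = 0.0308), and the lysosomal or endosomal carriers Slc36a1, Slc36a4 and Slc38a7, at log2 fold changes of 0.40 to 0.42. Slc38a10 was the fifth. The peptide and histidine transporter Slc15a4 was lower, 50.6 ± 3.81 CPM in ARG1+ against 68.7 ± 13.1 CPM in ARG1- libraries (log2 fold change -0.43 ± 0.11, edgeR FDR = 0.0239), as was the glutamine carrier Slc38a1. Slc15a3, with the highest CPM of the list, was not called (log2 fold change -0.08 ± 0.07, edgeR FDR = 0.447). Among 13 glutamate, proline and transamination enzymes, Ass1, which makes argininosuccinate and also had the highest CPM, was the 1 called gene, 331 ± 48.7 CPM in ARG1+ against 435 ± 60.5 CPM in ARG1- libraries (log2 fold change -0.40 ± 0.11, edgeR FDR = 0.0401).

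Of 18 other tested targets of ATF4 or CHOP, 2 were higher and 1 was lower. Vegfa, the vascular growth factor and the one with the highest CPM, averaged 1332 ± 144 CPM in ARG1+ against 976 ± 70.5 CPM in ARG1- libraries (log2 fold change 0.45 ± 0.08, edgeR FDR = 0.00599). Klhl24 was the other higher gene. Bbc3 (PUMA), a BH3-only promoter of cell death, was lower, 7.27 ± 0.672 CPM in ARG1+ against 11.1 ± 1.71 CPM in ARG1- libraries (log2 fold change -0.60 ± 0.11, edgeR FDR = 0.00633). With the animal as a block, 6 of these targets were higher and 2 lower. The genes that the block added were Gdf15, Gadd45a, Slc7a11 and Map1lc3b, all higher, and Herpud1, which was lower. Of 12 other ATF and C/EBP factors, Batf3, which dendritic cells use, was lower, 2.09 ± 0.633 CPM in ARG1+ against 4.10 ± 1.34 CPM in ARG1- libraries (log2 fold change -0.93 ± 0.25, edgeR FDR = 0.0302), and so was Creb1, 64.02 ± 5.74 CPM in ARG1+ against 81.8 ± 8.41 CPM in ARG1- libraries (log2 fold change -0.35 ± 0.08, edgeR FDR = 0.0152). The dendritic cell markers were lower in the same libraries, and their part in the Batf3 value was not tested. Cebpa, with the highest CPM of these factors, was not called (log2 fold change -0.04 ± 0.10, edgeR FDR = 0.850). The plot of the 7 lists shows calls on both sides of 0 in 3 of them.

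**Figure D3:**
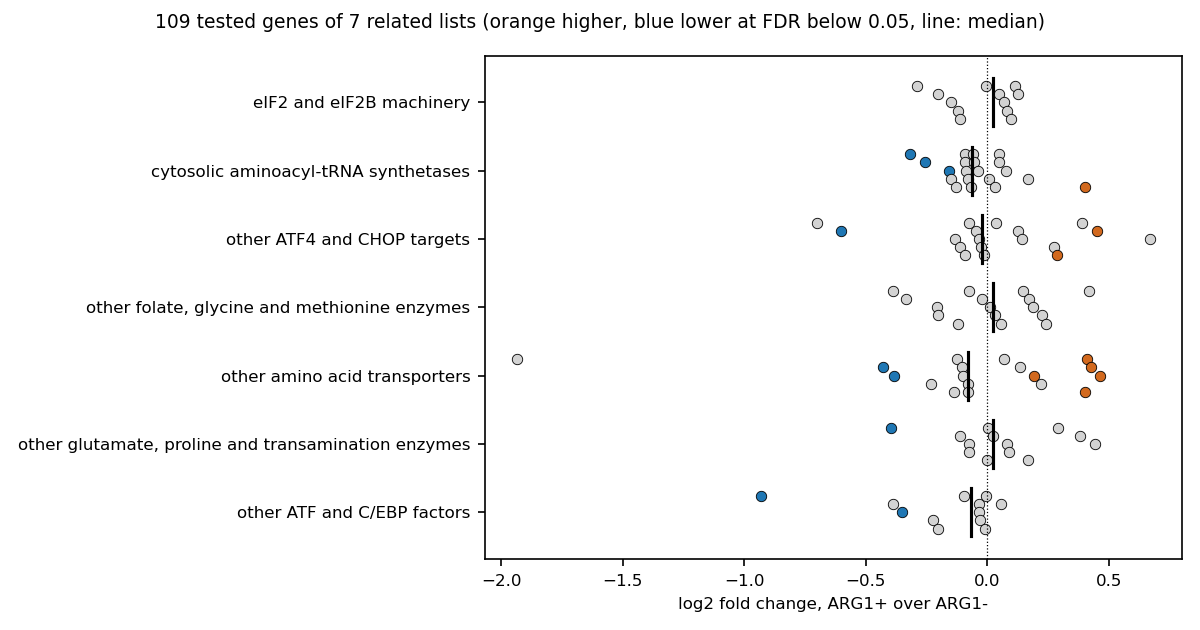
Each point is the log2 fold change of 1 tested gene in ARG1+ over ARG1- cells (horizontal axis, no unit), with 1 row for each of the 7 lists and a line at the list's median. Orange points (8 genes) were higher and blue points (9 genes) lower at an FDR below 0.05, and the medians lie between -0.08 and 0.02.

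Marker lists of other cells also varied among the ARG1- libraries. The B and plasma cell markers summed to 50.04, 32.6, 68.97, 32.5 and 53.3 CPM in the ARG1- libraries of m2, m6, m234, m235 and m236, against 10.8, 10.98, 13.1, 5.88 and 17.7 CPM in the ARG1+ libraries. As with Phgdh, m2, m234 and m236 were the high ARG1- libraries and m236 was the highest ARG1+ library, whereas the ARG1+ library of m234 was the lowest for Phgdh and the second highest for these markers. The microglial markers summed to 1456, 1040, 2667, 811 and 1188 CPM in the ARG1- libraries and the dendritic cell markers to 47.04, 28.3, 57.9, 30.6 and 27.6 CPM. For the microglial list, m2, m234 and m236 were again the 3 highest ARG1- libraries. For the dendritic cell list m2 and m234 were the 2 highest, but m236 was the lowest. The oligodendrocyte markers, none of them called, also had m2, m234 and m236 as the 3 highest ARG1- libraries. They summed to 153.4, 149.9, 196.9, 137.5 and 150.4 CPM in the ARG1- libraries, in the same order of animals. Here m236 and m6 lay close together, at 150.4 and 149.9 CPM. For the endothelial list, m235 was the highest ARG1- library, at 145 CPM, followed by m236 at 140 CPM. The part of these cells in the levels of Phgdh and Psat1 was not tested.

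**Figure D4:**
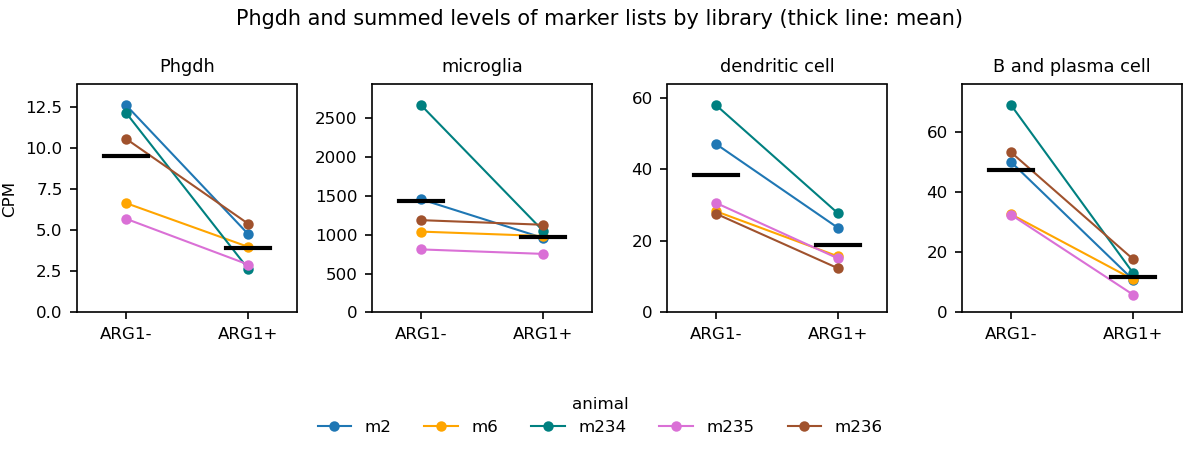
CPM of Phgdh and summed CPM of the microglial, dendritic cell and B and plasma cell marker lists (vertical axes, each from 0) in the ARG1- and ARG1+ library of each animal, with the mean as a thick line. The ARG1- library of m234 is the highest for the 3 marker lists, at 2667, 57.9 and 68.97 CPM, and the second highest for Phgdh, at 12.1 CPM.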

How the data were processed

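RNA-seq was performed on 10 libraries from 5 mice. The deposited values are whole-number counts per Ensembl gene, which the authors made from strand-specific libraries read at one end for 50 bases, by alignment to GRCm38 with STAR (version 2.7.10b in the submitters' processing notes, which also name Picard) and by counting with summarizeOverlaps in Union mode on Ensembl release 100. The sources used here do not say whether counting used the strand.

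Rows above 1 CPM (in 3 libraries or more, the filter of the study) entered edgeR's quasi-likelihood test (edgeR 4.0.16, R 4.3.3) with TMM library sizes and no block, with Benjamini-Hochberg adjustment over all 13740 tested genes. CPM are TMM-normalised. Intervals of log2 fold changes are 95% intervals of that fit. DESeq2 1.42.0, limma-trend of limma 3.58.1 (prior count 2), other library sizes and filters, omission of each library or animal, and the animal number as a replicate block were alternatives. The sum of Phgdh and Gm7901 was chosen after seeing the data. Libraries of one animal were paired by the labels, and their deviations from the group means correlated at r = 0.361 to 0.664, against at most 0.0675 between animals (across genes, which are not independent). For a single member, exact two-sided permutation of 5 against 5 libraries can reach p = 0.00794 at the least, which the 6 called members and Vldlr did. This least p is reached whenever the groups do not overlap, as for 11.3% of all genes, and adds nothing to that observation. The permutation took no account of the animal pairing and was not adjusted.

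The members and lists were chosen with earlier results of these data known. Every member is named. Of each related list, the tested gene of highest mean CPM and the called genes with the largest and smallest log2 fold change are named, and other called genes were named after their values were seen. The separate level of 1 B and plasma cell marker is not reported here. Exon lengths, overlaps and shared 50-base stretches came from GENCODE M21. The tests were run on simulated counts without an animal effect and with larger changes than those of most called members. That check therefore does not cover the pairing of libraries or changes as small as these. The smallest library held 8396863 counts, in which 1 CPM was 8.40 counts.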

Additional observations from a re-analysis of the deposited data

Results flagged for a closer look

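Among 60 groups of 5 libraries (30 tested members in 2 groups), 4 held a library far from the others of its group. The gap to the nearest other library was 0.726 to 0.845 of the group's range in these 4. Chance alone flags about 1 in 20 groups if values are normally distributed. The groups share libraries and are not independent, so the count of 4 cannot be tested against that rate. In both Atf3 and Ppp1r15a the flagged library was the ARG1- library of m234, the shallowest one, with 570.5 CPM of Atf3 where the others held 321 to 355 CPM, and 481 CPM of Ppp1r15a where the others held 289 to 313 CPM. Slc7a5 was low in the ARG1+ library of m236, at 22.4 CPM against 27.6 to 29.5 CPM. Slc6a9 was low in the ARG1+ library of m235, at 0.394 CPM against 0.764 to 0.972 CPM. The cause was not tested for any of these values.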

How the results depend on the processing

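No member reversed its direction once called in any alternative run. With the animal as a replicate block, the members called higher went from 0 to 2 and those called lower from 6 to 14. DESeq2 and the fit without a filter each called 1 member higher. Past both limits there was 1 member, and without a filter there were 2 (Slc1a4 added). With single libraries or animals left out, the members called higher ranged from 0 to 1, those called lower from 3 to 7 and those past both limits from 1 to 2. The lowest count, 3, came without m2 or without m6, where Asns, Slc7a5 and Nupr1 were no longer called. Without the ARG1- library of m234, 6 members were lower. Phgdh, Mthfd2 and Aldh18a1 were called in every alternative. Of 450 log2 fold changes with a library or animal left out, 421 kept sign and call, 11 lost the call, 6 gained one and 12 changed sign without a call in either fit. Of 210 under the other alternatives the counts were 196, 0, 13 and 1. Members that did not pass the filter rested on few counts, and whether more depth would show a difference was not tested.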

Other observations

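Some related genes stood out only in paired values and were picked after their values were seen. Slc1a3, a glutamate transporter, measured 0.913 ± 0.536 CPM in ARG1+ against 3.91 ± 4.04 CPM in ARG1- libraries (SD, n = 5 per group), lower in 5 of 5 animals (log2 fold change -1.94, edgeR FDR = 0.057, 0.0042 with the animal as a block). Gdf15, a secreted stress cytokine, was higher in 5 of 5 animals at 12.1 against 7.82 CPM (edgeR FDR = 0.153, 8.66e-04 with the block), and Herpud1, which acts in degradation of endoplasmic reticulum proteins, was lower in 5 of 5 animals at 31.2 against 51.5 CPM (edgeR FDR = 0.0901, 0.00442 with the block).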
